A study of Physcomitrium patens with 20 samples.

Results

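The genes of chromosome 19 of the moss Physcomitrium patens were followed across 7 genotypes in mRNA sequencing of protonema, the thread-like tissue that grows from a moss spore. Members were the rows of the deposited count table whose identifiers start with Pp3c19_, 986 of 31967 gene rows (3.08%). The number that ends an identifier, between 70 and 23300, was taken as the order of the genes along the chromosome, a convention that was not checked against an annotation. The chromosome was singled out because its genes are raised as a whole in 1 library, wild-type replicate 3, so the members were chosen by their level in that library, which is described without a test. In the other libraries the level was not used for the choice.

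The mutants carry the names of DNA methyltransferase genes in the labels, as drm12, met, cmt and dnmt3b and the combinations met/dnmt3b and cmt/dnmt3b, and the labels do not describe the alleles. There were 3 libraries each of drm12, cmt, dnmt3b, met/dnmt3b, cmt/dnmt3b and wild type (wt), and 2 of met. All came from cultivar Grandsen (as the labels spell it) at 7 days of growth on BCDAT medium under a long-day light regime. The labels do not say whether a genotype is 1 line or several, nor whether replicates were grown separately. A p-value here therefore reflects library-to-library spread alone, and that spread may be technical. The labels also give a batch, without saying of what. Batch 1 held replicates 1 and 2 of drm12, cmt and wt, both met libraries and all met/dnmt3b libraries. Batch 2 held replicate 3 of drm12, cmt and wt and all libraries of dnmt3b and cmt/dnmt3b.

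In plants, DNA methylation sits on cytosines in the CG, CHG and CHH contexts (H is any base but G) and is dense over transposable elements (TEs), whose transcription it represses. MET enzymes maintain CG methylation and CMT enzymes CHG methylation. In this moss, CHH methylation of heterochromatin depends mainly on DNMT3b. DRM enzymes are known from flowering plants as de novo methyltransferases. Protonema is haploid, so each chromosome is normally present once per genome.

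The deposited table and the reference gene table used here do not pair these identifiers with gene names (0 of 986 matched), so genes are given by identifier, no role is stated for any of them, and neither the methyltransferase genes nor markers of protonema were checked. Levels (CPM) are counts divided by the summed gene counts of the library and multiplied by 1000000. Gene lengths were not used, so levels of different genes are not compared. In bulk RNA, fewer cells of a type and less RNA per cell cannot be told apart.

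The summed gene counts ran between 14221016 and 21683973 per library. Where a gene had 0 counts, the depth allows a true level of up to 3 counts, a floor of 0.138 to 0.211 CPM, and intervals below are 95% exact (Clopper-Pearson) intervals. Floors and intervals cover counting error only, since amplified reads are not independent molecules. Apart from chromosome 19, the medians of the other 26 chromosomes in wt replicate 3 lay between -0.09 and 0.03 on the relative log2 scale described below.

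Of the 986 genes of chromosome 19, 789 (80%) had at least 1 count in any library, against 80.9% of all genes, and 508 (51.5%) had a mean level of at least 2 CPM over the 19 libraries other than wt replicate 3, against 52.8% of all genes. The median level of the expressed genes was 26.8 CPM, against 25.3 CPM over all expressed genes. The 10 genes with the most counts held 29.1 to 39.5% of the counts of the chromosome, 35.4% in wt replicate 3. By these values the chromosome was close to the average over all genes.

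The 3 genes with the most counts lie near the end of the order. Pp3c19_20900 had 7320 CPM in wt replicate 3, against 3710 and 3480 CPM in wt replicates 1 and 2. In the mutants it lay between 2560 CPM (cmt replicate 2) and 4880 CPM (dnmt3b replicate 3), so wt replicate 3 was the highest of the 20 libraries. Pp3c19_21160 had 4330 CPM in wt replicate 3, against 1830 and 1560 CPM in replicates 1 and 2. It had 2280, 2550 and 2650 CPM in dnmt3b, above all other mutant libraries (1360 to 2260 CPM). Pp3c19_20840 had 2030 CPM in wt replicate 3 and 1220 and 1400 CPM in replicates 1 and 2, but drm12 replicate 3 reached 1970 CPM, so here wt replicate 3 hardly stood apart. None of these genes was called between a mutant and wt when wt replicate 3 was left out.

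Chromosome 19 held 6.88% of the gene counts in wt replicate 3 (interval 6.87 to 6.90%), against 3.52% (3.51 to 3.53%) and 3.27% (3.26 to 3.27%) in wt replicates 1 and 2. The share in wt replicate 3 was 2.03 times the mean of the other wt libraries. In the mutants it was 3.42, 3.48 and 3.49% in drm12, 3.60 and 3.64% in met, and 3.65, 3.55 and 3.68% in cmt. It was 3.66, 3.91 and 4.01% in dnmt3b, 3.42, 3.42 and 3.40% in met/dnmt3b, and 3.28, 3.32 and 3.33% in cmt/dnmt3b. The 19 libraries other than wt replicate 3 thus lay between 3.27 and 4.01%, and the groups of mutants overlapped the range of wt replicates 1 and 2 except for met, cmt and dnmt3b, whose libraries were all above 3.52%.

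The relative level of a gene is the log2 of its CPM plus 0.5, minus the median of that gene over the 19 other libraries, minus the median of all expressed genes in the library. Over the 508 expressed genes of chromosome 19 its median was 0.94 in wt replicate 3 (quartiles 0.72 and 1.12), a factor of 1.92. In wt replicates 1 and 2 it was -0.04 and -0.03. In the mutants the library medians ran from -0.03 to 0.01 in drm12, -0.02 to -0.004 in met, -0.03 to 0.01 in cmt, 0.01 to 0.04 in dnmt3b, 0.01 to 0.10 in met/dnmt3b and -0.08 to -0.03 in cmt/dnmt3b. Wt replicate 3 is the only wt library of batch 2, so batch and replicate cannot be told apart within wt. In the other batch 2 libraries the chromosome was not raised, with -0.03 in drm12 replicate 3 and 0.01 in cmt replicate 3.

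**Figure D1:**
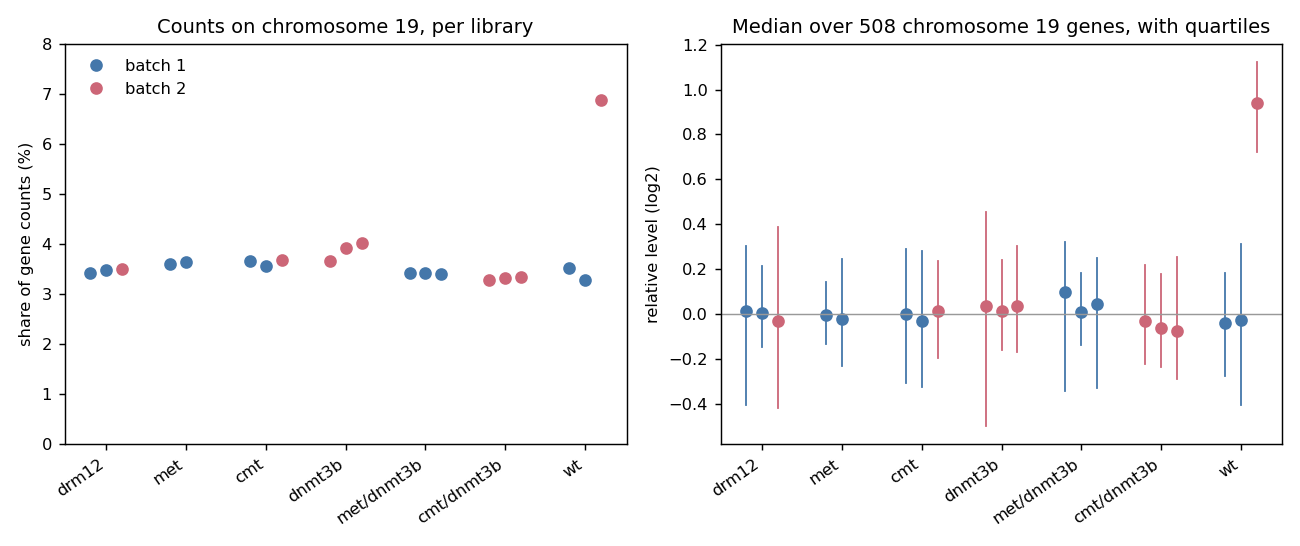
Left, the share of gene counts on chromosome 19 in percent; right, the median relative level (log2) of 508 expressed chromosome 19 genes with quartiles as lines; each point is 1 library, coloured by batch. Wt replicate 3 stands at 6.88% and 0.94, and the other 19 libraries lie between 3.27 and 4.01% and between -0.08 and 0.10.

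The rise in wt replicate 3 had nearly the same size along the whole chromosome. In 4 successive parts of 127 expressed genes each, the median relative level in wt replicate 3 was 0.92, 0.99, 0.94 and 0.93. Of the 127 genes of a part, 119, 121, 122 and 122 lay above 0. In 20 windows of 25 successive genes (33 in the last) the median ran between 0.87 (identifiers 4360 to 5170) and 1.03 (20540 to 21230), and in 20 of 20 windows wt replicate 3 was above each other library. The first window (210 to 1820) stood at 0.97 and the last (21240 to 23300) at 0.92, both within the range of the windows between them. Over the same windows the other libraries ranged from -0.44 (dnmt3b replicate 1, identifiers 17050 to 18290) to 0.34 (dnmt3b replicate 1, identifiers 5190 to 5900).

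**Figure D2:**
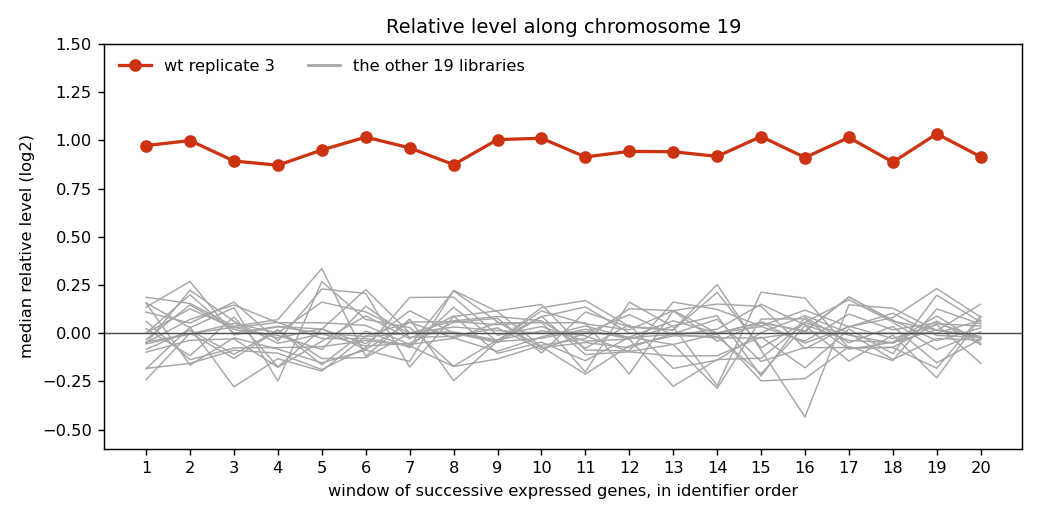
Median relative level (log2) in 20 windows of successive expressed genes, in identifier order (horizontal axis), for wt replicate 3 (points and thick line) and the other 19 libraries (thin lines). The line of wt replicate 3 stays between 0.87 and 1.03 from the first window to the last, with the other libraries between -0.44 and 0.34.

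Among the other libraries, no genotype showed a part of the chromosome shifted by more than 0.1 on average. The mean of the library medians of dnmt3b in the first part was 0.09, but its libraries ran from 0.01 to 0.20. That of cmt/dnmt3b in the first part was -0.09 (-0.11 to -0.08), and in the other parts it lay between -0.06 and -0.03. In wt without replicate 3 the parts gave -0.03, -0.01, -0.08 and 0.01.

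By expression level, the rise was seen from genes of 2 CPM upward and could be read less well below. Genes over 50 CPM (144) had a median relative level of 0.95 in wt replicate 3 and those of 10 to 50 CPM (251) one of 0.98, while the medians of the other libraries in these classes lay between -0.20 and 0.18. Genes of 2 to 10 CPM (113) stood at 0.80, with wider quartiles of 0.37 and 1.10, and genes of 0.5 to 2 CPM (62) at 0.40, within the range of the other libraries (-0.14 to 0.62). In the class under 0.5 CPM (217) the median was 0.01, on a scale that adds 0.5 CPM to every level. Summed levels do not use that constant. The genes under 0.5 CPM summed to 26.6 CPM in wt replicate 3, against 14.4 and 14.8 CPM in replicates 1 and 2, a ratio of 1.83, and those of 0.5 to 2 CPM gave 1.81. The ratio was 2.18 for genes of 2 to 10 CPM, 2.14 for 10 to 50 CPM and 2.0 over 50 CPM. For genes of all other chromosomes and scaffolds the same ratios lay between 0.86 and 1.08. Set against the mean of drm12 replicate 3 and cmt replicate 3, of the same batch, the ratios rose with the level. On chromosome 19 they ran from 1.27 under 0.5 CPM to 1.95 over 50 CPM, and for all other genes from 0.636 to 0.987.

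**Figure D3:**
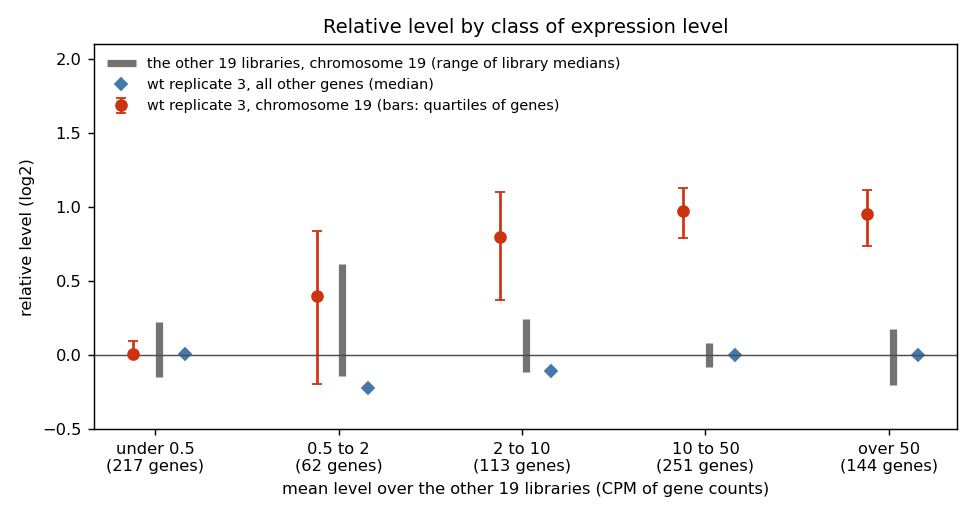
Relative level (log2) by class of mean level over the 19 other libraries (CPM): circles are the median of chromosome 19 genes in wt replicate 3 with quartiles, grey bars the range of the medians of the other libraries, diamonds the median of all other genes in wt replicate 3. Above 2 CPM the circles stand at 0.80 to 0.98 and the diamonds between -0.10 and 0.004.

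Class by class, and with wt replicate 3 left aside, cmt/dnmt3b lay above the other genotypes at 0.5 to 10 CPM and below them over 50 CPM. Over 50 CPM its libraries ran from -0.20 to -0.10, and those of the other genotypes from -0.03 to 0.18. Chromosome 19 genes of 0.5 to 2 CPM had a mean relative level of 0.52 in cmt/dnmt3b (libraries 0.44 to 0.62), above all other mutant libraries and wt replicates 1 and 2 (-0.14 to 0.16). For all other genes of this class the value in cmt/dnmt3b was 0.31. Chromosome 19 genes of 2 to 10 CPM stood at 0.16 in cmt/dnmt3b and other genes at 0.18, and genes over 50 CPM at -0.14 and other genes at -0.12. The classes were set on a mean that includes the cmt/dnmt3b libraries, and the difference between chromosome 19 and other genes was not tested.

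Gene by gene, wt replicate 3 exceeded the mean of wt replicates 1 and 2 at least 1.5-fold (on CPM plus 0.5) in 417 of 508 expressed chromosome 19 genes (82.1%), against 20.6% of all expressed genes. The median ratio was 2.15 (quartiles 1.72 and 2.71), against 1.10 for all other genes (0.865 and 1.39). Set against the mean of drm12 replicate 3 and cmt replicate 3, which share its batch, 384 genes (75.6%) were at least 1.5-fold higher, against 5.74% of all expressed genes, and the median ratio was 1.86. The spread of the log2 ratio around its middle was much as elsewhere, with an interquartile range of 0.66 on chromosome 19 and 0.68 for all other genes. Between wt replicates 1 and 2 this range was 0.63 and 0.61.

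Some genes were not higher in wt replicate 3. In 42 of 508 genes (8.27%) it was below the mean of wt replicates 1 and 2, against 38.5% of all expressed genes. Whether these 42 lacked the rise or lay within the spread between wt libraries was not tested. The lowest ratio, 0.219, was that of Pp3c19_9000, with 56.1 CPM in wt replicate 3 and 188 and 328 CPM in replicates 1 and 2. In cmt it had 14.2 CPM in replicate 3, of batch 2, and 283 and 271 CPM in replicates 1 and 2, but in drm12 replicate 3 was not lower than both others. Next came Pp3c19_3000, with 7.66 CPM in wt replicate 3 and 26.5 and 42.8 CPM in replicates 1 and 2. The highest ratios were those of Pp3c19_1860 (5.91) and Pp3c19_13790 (5.60). Pp3c19_1860 had 416 CPM in wt replicate 3 and 70.8 and 69.1 CPM in replicates 1 and 2, and its next highest libraries were the 3 of dnmt3b (322, 195 and 230 CPM). Pp3c19_13790 had 18.3 CPM in wt replicate 3 and 4.33 and 1.37 CPM in replicates 1 and 2, while dnmt3b replicate 3 had 18.1 CPM.

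Genes without counts in wt replicates 1 and 2 mostly stayed without counts. Of 311 such genes on chromosome 19, 24 (7.72%) had a count in wt replicate 3 and 1 had at least 10 counts. In the mutants between 16 (drm12 replicate 1) and 48 (cmt/dnmt3b replicates 1 and 3) of the 311 were detected. The 3 cmt/dnmt3b libraries held 688, 532 and 650 counts in these genes, above cmt (155, 205 and 253) and all other libraries (26 to 137). Few genes gave much of this. Pp3c19_9160 held 246, 133 and 186 of the cmt/dnmt3b counts, Pp3c19_11090 138, 85 and 135, and Pp3c19_8751 60, 75 and 28. Of the 9190 genes elsewhere without counts in wt replicates 1 and 2, 4.32% were detected in wt replicate 3. In cmt/dnmt3b 13.3, 11.7 and 12.8% of them were detected, against 15.4, 13.5 and 15.4% for those of chromosome 19. The genes elsewhere held 10667, 8313 and 11022 counts in cmt/dnmt3b, likewise above cmt (3313, 3839 and 5407) and all other libraries (795 to 5035).

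Other chromosomes were raised in other libraries. Chromosome 16 (694 genes) had a median relative level of 0.82 to 0.86 in the 3 cmt/dnmt3b libraries, and chromosome 10 (636 genes) one of 0.46 to 0.58. Those rises were shared by all libraries of a genotype, while chromosome 19 was raised in 1 of 3 wt libraries. Shares over all genes given below for cmt/dnmt3b include chromosomes 16 and 10, and shares without them were not computed. A lower share of rises on chromosome 19 than over all genes in cmt/dnmt3b is therefore not read as a trait of chromosome 19.

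Each mutant was then compared with wt without wt replicate 3, to describe the members by a contrast that the choice of the chromosome did not use. By edgeR's quasi-likelihood test with genotype and batch as terms, 602 genes of chromosome 19 passed the low-count filter among 20169 genes, and a gene was called at a Benjamini-Hochberg adjusted p below 0.05 over all 26829 genes and TEs tested. The same fit with wt replicate 3 is given beside each count, and nothing about the genotypes is read from it. Levels in wt replicate 3 are printed for named genes as description alone, because the chromosome was chosen by them. They are raised over most of the chromosome, so a mutant level below that library is not read as support for a fall. All comparisons with wt share wt replicates 1 and 2. Leaving out wt replicate 3 also leaves batch 2 without wt, so that dnmt3b and cmt/dnmt3b, present in batch 2 alone, are set against wt through a batch term estimated from drm12 and cmt.

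The median log2 fold change of the 602 genes lay near that of all genes in each comparison. It was 0.029 in drm12 (0.019 over all genes), 0.023 in met (0.023), 0.022 in cmt (0.019), 0.023 in dnmt3b (-0.007), 0.00 in met/dnmt3b (-0.020) and -0.06 in cmt/dnmt3b (0.001). With wt replicate 3 the chromosome 19 medians were -0.31, -0.21, -0.35, -0.50, -0.20 and -0.62 in the same order, while those over all genes stayed between -0.02 and 0.04. The share of chromosome 19 genes with a positive fold change was 46.8 to 52.7% without that library and 18.4 to 34.6% with it. In met/dnmt3b against met and cmt/dnmt3b against dnmt3b, which hold no wt library, the medians were 0.03 and -0.07 in both fits.

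**Figure D4:**
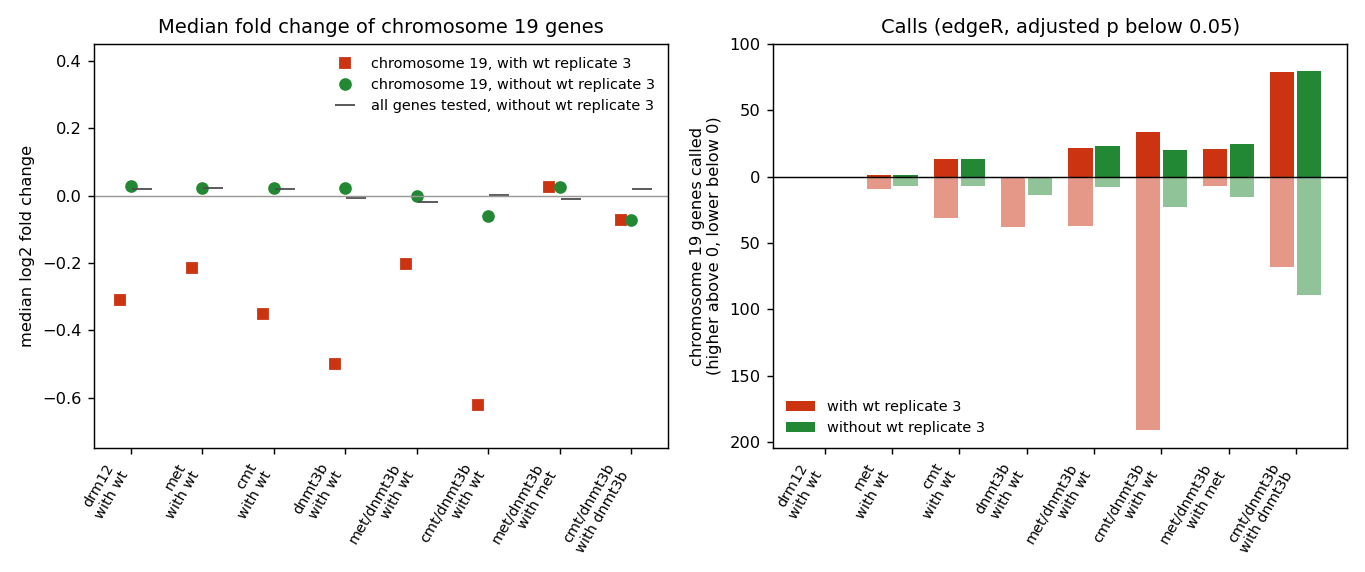
Left, the median log2 fold change of chromosome 19 genes for 8 comparisons, with wt replicate 3 (squares) and without it (circles), and that of all genes tested (dashes); right, chromosome 19 genes called higher (above 0) and lower (below 0) by edgeR. With wt replicate 3 the medians against wt stand at -0.20 to -0.62 and 191 genes are called lower in cmt/dnmt3b; without it they stand between -0.06 and 0.03 and 23 are called lower.

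In drm12 against wt, 0 of 602 genes of chromosome 19 were called by edgeR, against 0% (higher) and 0.00496% (lower) of all genes tested. DESeq2 also called 0 (background 0.0297% higher and 0.0595% lower), and 17 genes (2.82%) had an unadjusted p below 0.05, against 3.22% of all genes. Adding wt replicate 3 left 0 genes called (background 0.00496% higher and 0.00993% lower), but 71 (11.8%) had an unadjusted p below 0.05, against 3.99% of all genes.

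In met against wt, 1 gene rose and 7 fell, which is 0.166% and 1.16% of the 602, against 0.228% and 0.793% of all genes tested. The gene that rose, Pp3c19_3140, had 0.902 and 0.967 CPM in met, against 0.0628 and 0 CPM in wt replicates 1 and 2 and 0.211 CPM in wt replicate 3. All met libraries lay above all wt libraries, and the ratio of met to wt without replicate 3 was 30.6 (interval 5.12 to 1244, 1 count in wt; edgeR adjusted p = 0.0228). Each library of the other mutants (0.324 to 1.41 CPM) was also above all wt libraries, and the gene was called in 3 of the 6 comparisons with wt. The 2 largest falls were in the successive identifiers Pp3c19_13690 and Pp3c19_13700. Pp3c19_13690 had 18.0 and 16.1 CPM in met, against 107 and 168 CPM in wt replicates 1 and 2 and 36 CPM in wt replicate 3 (log2 fold change -3.25 ± 0.60 SE, edgeR adjusted p = 0.015). Pp3c19_13700 had 0.601 and 0.591 CPM in met, against 3.39 and 8.01 CPM in wt replicates 1 and 2 and 1.20 CPM in wt replicate 3 (-3.50 ± 0.72, adjusted p = 0.0239). For both, the levels of met lay below wt replicates 1 and 2, and wt replicate 3 was the wt library nearest to met. In the fit with wt replicate 3, 1 gene rose and 9 fell (background 0.243% and 0.387%). The count of 8 became 0 without wt replicate 2 or without met replicate 2 and 1 without met replicate 1, and 37 within batch 1 alone (12 higher, 25 lower, against 1.99% and 3.63% of all genes). Pp3c19_3140 was not called under a replicate block, with DESeq2 or with no batch term, and Pp3c19_13700 was not called with no batch term. The calls of the 3 named genes were each lost without wt replicate 2, without met replicate 1 and without met replicate 2.

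In cmt against wt, 13 genes rose (2.16%) and 7 fell (1.16%), against 1.73% and 1.84% of all genes tested. Of those that rose, 4 (30.8%) had a mean under 0.5 CPM in wt replicates 1 and 2, against 37.4% of all genes called higher. In 4 successive parts of the tested genes, with 150 or 151 genes each, the rises numbered 1, 7, 3 and 2. The second part holds identifiers 5950 to 10330. The spread of calls over the parts was not tested in any comparison, and comparisons share some of the genes called. Pp3c19_9160 had 4.71, 7.89 and 2.17 CPM in cmt, against 0 counts in wt replicates 1 and 2 and 0.0703 CPM (1 count) in wt replicate 3. It was at least 51.7-fold higher in cmt, from 3 counts over wt replicates 1 and 2 (edgeR adjusted p = 0.00536). Pp3c19_9830 had 4.22, 2.95 and 2.35 CPM in cmt, against 0.0628 and 0 CPM in wt replicates 1 and 2 and 0 in wt replicate 3. The ratio without wt replicate 3 was 101 (interval 17.9 to 4012, 1 count in wt; adjusted p = 0.000326). Each cmt library exceeded each wt library for both genes.

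Pp3c19_19150 had 0 counts in the 3 cmt libraries, against 0.439 and 0.837 CPM in wt replicates 1 and 2, but also 0 in wt replicate 3. It was at least 12.1-fold lower in cmt than in wt replicates 1 and 2, from 3 counts over the cmt group (adjusted p = 0.0140), and its groups overlap once wt replicate 3 is counted. Pp3c19_14120 had 0.362, 0.333 and 0.507 CPM in cmt, against 3.52 and 3.65 CPM in wt replicates 1 and 2 and 4.22 CPM in wt replicate 3. It was lower in each cmt library than in wt replicates 1 and 2 (log2 fold change -3.44 ± 0.47 SE, adjusted p = 0.000213). When wt replicate 3 was included, 13 genes rose and 31 fell (background 3.09% and 2.12%), of which 10 and 7 were called in both fits. The count of 20 became 7 without wt replicate 2, 10 without cmt replicate 1 and 39 without cmt replicate 3 (19 higher, 20 lower), and without wt replicate 1 there were 8 higher and 11 lower. Pp3c19_9160 was not called without wt replicate 1 or 2, nor Pp3c19_19150 without wt replicate 2 or cmt replicate 1.

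In dnmt3b against wt, 0 genes rose and 14 fell (2.33%), against 0.248% and 1.22% of all genes tested. Of the 602 genes, 124 (20.6%) had an unadjusted p below 0.05, against 19.3% of all genes. Pp3c19_2880 had 0, 0.101 and 0 CPM in dnmt3b, against 1.51 and 0.956 CPM in wt replicates 1 and 2 and 0.422 CPM in wt replicate 3. The ratio of wt without replicate 3 to dnmt3b was 33.0 (interval 8.56 to 282, 2 counts in dnmt3b; edgeR adjusted p = 0.0176), and each dnmt3b library was below wt replicates 1 and 2. Pp3c19_3000 had 0.799, 2.89 and 3.65 CPM in dnmt3b, against 26.5 and 42.8 CPM in wt replicates 1 and 2 and 7.66 CPM in wt replicate 3 (log2 fold change -4.75 ± 0.96 SE, adjusted p = 0.0216). Also in batch 2, cmt/dnmt3b had 8.22, 6.65 and 8.82 CPM. Replicate 3 lay below replicates 1 and 2 in cmt (3.74 against 8.26 and 13.4 CPM) but above them in drm12 (98.3 against 27.3 and 18.6 CPM). The batch term rests on these genotypes. Pp3c19_3000 was not called with wt replicate 3 in the fit, Pp3c19_2880 was not with DESeq2, and neither was under a replicate block. With wt replicate 3, 0 genes rose and 38 fell (background 0.442% and 1.05%), 12 of them called in both fits. The count of 14 became 1 without wt replicate 2, 4 when dnmt3b replicate 1 or 3 was left out, and 108 with no batch term (55 higher, 53 lower, against 6.16% and 8.89% of all genes). The absence of rises also depended on the processing, since DESeq2 called 18 higher and 30 lower (background 1.86% and 4.73%), and edgeR with no low-count filter 18 higher and 39 lower (background 1.67% and 5.06%). Without wt replicate 2 or dnmt3b replicate 1 neither named gene was called, and without dnmt3b replicate 3 Pp3c19_2880 was not.

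In met/dnmt3b against wt, 23 genes rose (3.82%) and 8 fell (1.33%), against 3.69% and 2.81% of all genes tested. Of those that rose, 8 (34.8%) had a mean under 0.5 CPM in wt replicates 1 and 2, against 41.2% of all genes called higher. The rises numbered 8, 5, 6 and 4 in the 4 parts. Pp3c19_11090 had 0.334, 0.649 and 0.844 CPM in met/dnmt3b, against 0 counts in the 3 wt libraries, and was at least 6.74-fold higher (edgeR adjusted p = 0.0114). Pp3c19_7890 had 0.334, 0.379 and 0.783 CPM in met/dnmt3b, against 0 counts in wt replicates 1 and 2 and 0.211 CPM (3 counts) in wt replicate 3. It was at least 5.44-fold higher than in wt replicates 1 and 2 (adjusted p = 0.0243). Both rest on few counts, 31 and 25 over the met/dnmt3b group, and both bounds come from 3 counts over wt replicates 1 and 2.

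Pp3c19_7009 had 0.935, 0.973 and 0.723 CPM in met/dnmt3b, against 5.21 and 4.96 CPM in wt replicates 1 and 2 and 4.85 CPM in wt replicate 3 (log2 fold change -2.64 ± 0.53 SE, adjusted p = 0.00498). Wt replicates 1 and 2 were close together here, each above all met/dnmt3b libraries. Pp3c19_13690, lower in met as well, had 35.7, 27 and 55.6 CPM in met/dnmt3b, against 107 and 168 CPM in wt replicates 1 and 2 (-1.92 ± 0.50, adjusted p = 0.0201), but its 36 CPM in wt replicate 3 fell inside the met/dnmt3b range. Its lowest levels were in dnmt3b (3.54, 4.77 and 3.89 CPM), and it was called in 3 of the 6 comparisons with wt, dnmt3b among them. It had 19.1, 9.8 and 28.3 CPM in cmt/dnmt3b. In cmt it had 78.7, 76.3 and 10.7 CPM, and in drm12 52.9 to 97 CPM. Including wt replicate 3, 22 genes rose and 37 fell (background 5.62% and 4.11%), 15 and 8 of them called in both fits. The count of 31 became 8 without wt replicate 1, 8 without wt replicate 2 and 17 without met/dnmt3b replicate 1, and 62 within batch 1 alone (41 higher, 21 lower, against 5.99% and 4.78% of all genes). Without wt replicate 1 or 2 neither Pp3c19_11090 nor Pp3c19_7890 was called, and Pp3c19_7890 was also lost without met/dnmt3b replicate 3 and under a replicate block. Pp3c19_13690 was lost without wt replicate 2 and without met/dnmt3b replicate 1 or 2. With no batch term neither Pp3c19_7890 nor Pp3c19_13690 was called.

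In cmt/dnmt3b against wt, 20 genes rose (3.32%) and 23 fell (3.82%), against 4.16% and 3.36% of all genes tested. Of those that rose, 12 (60%) had a mean under 0.5 CPM in wt replicates 1 and 2, against 39% of all genes called higher, a difference that was not tested. By part, the rises numbered 4, 8, 3 and 5. Pp3c19_11090 had 7.04, 5.95 and 7.94 CPM in cmt/dnmt3b, against 0 counts in the 3 wt libraries. It was at least 76.6-fold higher, from 3 counts over wt replicates 1 and 2 (edgeR adjusted p = 0.00553). Pp3c19_9160 had 12.6, 9.31 and 10.9 CPM in cmt/dnmt3b, against 0, 0 and 0.0703 CPM in wt replicates 1, 2 and 3, and was at least 121-fold higher than in wt replicates 1 and 2 (adjusted p = 0.0114). All cmt/dnmt3b libraries were above all wt libraries for both genes.

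The largest falls in cmt/dnmt3b were those of Pp3c19_2940 and Pp3c19_9000. Pp3c19_2940 had 0.051, 0.21 and 0 CPM in cmt/dnmt3b, against 0.314 and 1.67 CPM in wt replicates 1 and 2 and 1.41 CPM in wt replicate 3 (log2 fold change -4.33 ± 1.25 SE, adjusted p = 0.0384). Pp3c19_9000 had 5.10, 5.60 and 7.05 CPM in cmt/dnmt3b, against 188 and 328 CPM in wt replicates 1 and 2 and 56.1 CPM in wt replicate 3 (-3.91 ± 1.02, adjusted p = 0.0239). In both, the levels of cmt/dnmt3b lay below wt replicates 1 and 2. Pp3c19_9000 also had 14.2 CPM in cmt replicate 3, the cmt library of batch 2, and 19.3, 23.6 and 24.5 CPM in dnmt3b, while drm12 replicate 3, of the same batch, had 94 CPM, within the range of drm12 replicates 1 and 2 (186 and 74.8 CPM).

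With wt replicate 3 in the fit, 34 genes rose and 191 fell in cmt/dnmt3b, which is 5.63% and 31.6% of 604 genes, against 11.3% and 8.03% of all genes. Of the 23 falls without it, 22 were among these 191, so most of the 191 were called only in the fit that includes wt replicate 3. Without it, leaving out a further library gave 15 to 25 calls (23 without wt replicate 1, 15 without wt replicate 2, and 22, 25 and 22 without cmt/dnmt3b replicates 1, 2 and 3), each time with more rises than falls. Pp3c19_2940 and Pp3c19_9000 were not called under a replicate block, nor without wt replicate 2 or cmt/dnmt3b replicate 1, nor Pp3c19_2940 without replicate 3 and Pp3c19_9000 without replicate 2 of cmt/dnmt3b. With no batch term 164 genes were called, 80 higher and 84 lower, against 14.9% and 15.2% of all genes.

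Pp3c19_15200, Pp3c19_14120 and Pp3c19_9280 were each called in 3 of the 6 comparisons with wt. Of the 602 genes tested, 86 (14.3%) were called in at least 1 of them and 8 (1.33%) in at least 3, against 13.8% and 1.37% of all genes tested, so both shares were near those over all genes. The 3 named here have the smallest adjusted p of the 8. Pp3c19_15200 had 15.1, 15.1 and 19 CPM in cmt/dnmt3b, 4.95, 4.95 and 9.87 CPM in cmt and 1.8, 1.3 and 1.51 CPM in met/dnmt3b, against 0.502, 0.239 and 0.492 CPM in wt replicates 1, 2 and 3. Its log2 fold changes without wt replicate 3 were 4.43 ± 0.55, 3.66 ± 0.44 and 1.94 ± 0.43 SE (edgeR adjusted p = 0.000101, 8.07e-05 and 0.00958). Wt replicate 3 lay between the other wt libraries for this gene. Its call in met/dnmt3b was lost without wt replicate 2. Pp3c19_14120, lower in cmt, was lower in dnmt3b (0.400, 0.761 and 0.359 CPM; -3.26 ± 0.59, adjusted p = 0.0131) and in cmt/dnmt3b (0.715, 0.420 and 0.705 CPM; -3.17 ± 0.59, adjusted p = 0.00273). Its call in dnmt3b was lost without wt replicate 2 and under a replicate block. In drm12, met and met/dnmt3b it had 1.24 to 2.35 CPM, between these mutants and wt (3.52 to 4.22 CPM).

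Pp3c19_9280 had 6.89, 5.88 and 7.23 CPM in cmt/dnmt3b, 3.74, 3.41 and 3.62 CPM in met/dnmt3b and 2.29, 2.78 and 1.75 CPM in cmt, against 0.691 and 0.359 CPM in wt replicates 1 and 2. Its fold changes without wt replicate 3 were 3.86 ± 0.58, 2.67 ± 0.44 and 2.1 ± 0.45 on the log2 scale (edgeR adjusted p = 0.000498, 0.00127 and 0.00937). Wt replicate 3 stood at 2.32 CPM, inside the range of cmt, and with it in the fit the gene was not called in cmt. The call in cmt was also lost without wt replicate 2.

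**Figure D5:**
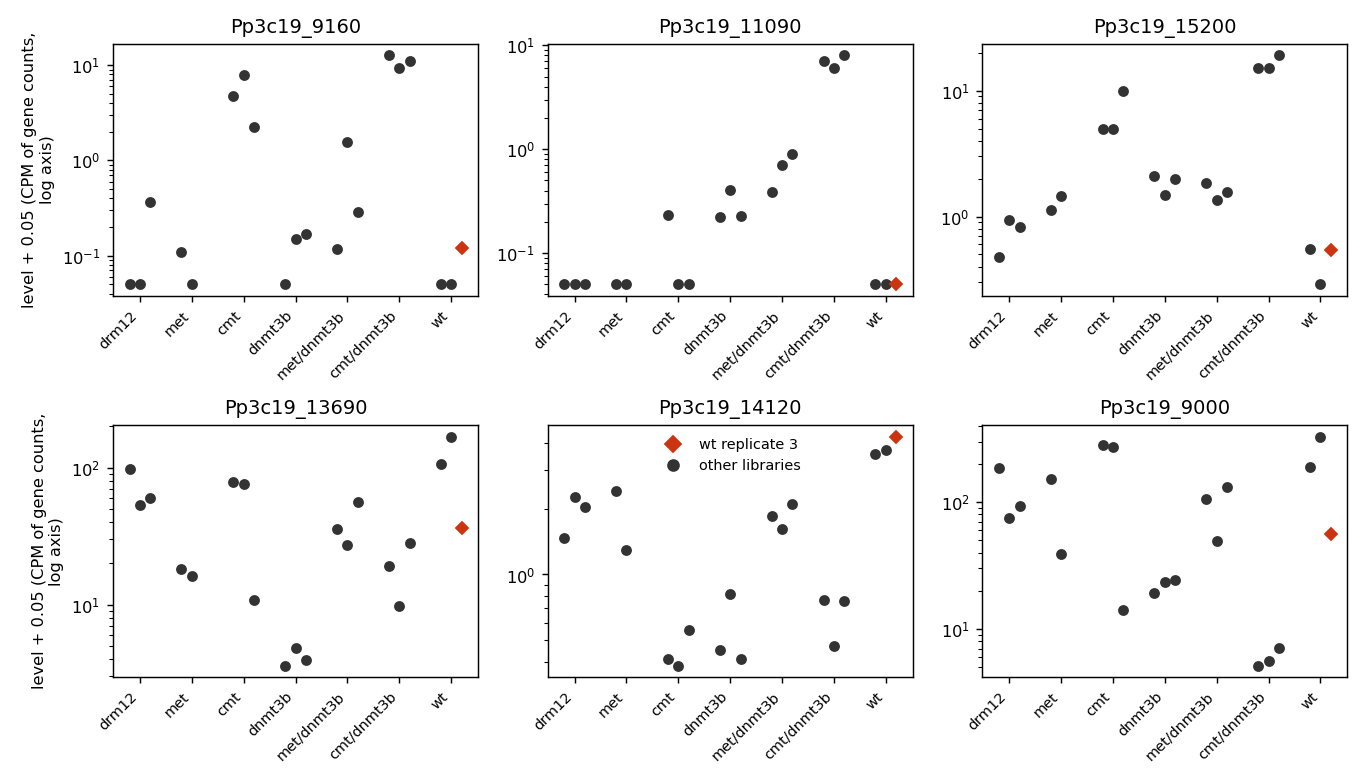
Level plus 0.05 (CPM, log axis) of 6 chromosome 19 genes in each library by genotype, with wt replicate 3 as a diamond. Pp3c19_9160, Pp3c19_11090 and Pp3c19_15200 are highest in cmt/dnmt3b, Pp3c19_14120 is lowest in cmt, dnmt3b and cmt/dnmt3b, and for Pp3c19_13690 and Pp3c19_9000 wt replicate 3 (36 and 56.1 CPM) lies below wt replicates 1 and 2.

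What the loss of DNMT3b adds to the loss of MET was read from libraries of batch 1, with no wt library in the comparison. The spread was estimated over all 19 libraries of the fit, wt replicates 1 and 2 among them. In met/dnmt3b against met, 25 genes rose (4.15%) and 15 fell (2.49%), against 3.26% and 2.72% of all genes tested. The rises numbered 5, 8, 8 and 4 in the 4 parts. Pp3c19_16070 had 0.668, 0.703 and 0.482 CPM in met/dnmt3b, against 0 counts in both met libraries, and Pp3c19_11090 had 0.334, 0.649 and 0.844 CPM, against 0 counts. Each was at least 7.27-fold higher, from 3 counts over the met group (edgeR adjusted p = 0.00392 and 0.0106). Pp3c19_16070 also had 0.126 and 0.239 CPM in wt replicates 1 and 2, which is 2 and 4 counts and near the floor of the met libraries (0.18 and 0.161 CPM), and it was not called in met against wt.

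Pp3c19_15660 had 2.40, 5.25 and 1.45 CPM in met/dnmt3b, against 10.2 and 14.8 CPM in met (log2 fold change -1.95 ± 0.49 SE, adjusted p = 0.0232). Pp3c19_16640 had 4.74, 8.65 and 4.64 CPM in met/dnmt3b, against 13 and 27.2 CPM in met (-1.64 ± 0.45, adjusted p = 0.0328). Groups did not overlap for either gene, but wt replicate 2, at 3.65 and 7.05 CPM, lay within the range of met/dnmt3b. With wt replicate 3 in the fit, 21 genes rose and 7 fell (background 2.94% and 2.79%). The count of 40 became 3 without met replicate 2, 22 without met replicate 1, 13 without met/dnmt3b replicate 1 and 15 without met/dnmt3b replicate 3. Without met replicate 2 none of the 4 named genes was called, and without met/dnmt3b replicate 1 or 3 Pp3c19_15660 and Pp3c19_16640 were not. In a fit within batch 1 alone, 31 genes rose and 11 fell of 578 (background 3.85% and 2.22%). Pp3c19_16640 was also lost within batch 1 and under a replicate block.

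What the loss of CMT adds to the loss of DNMT3b was read from libraries of batch 2, again with no wt library in the comparison. The spread was again estimated over all 19 libraries of the fit. This comparison gave the most calls on the chromosome. In cmt/dnmt3b against dnmt3b, 80 genes rose (13.3%) and 89 fell (14.8%), against 16.1% and 12.8% of all genes tested. Of the rises, 27 (33.8%) had a mean under 0.5 CPM in dnmt3b, against 28.8% of all genes called higher, and 30 lay in the second of the 4 parts, with 12, 18 and 20 in the first, the third and the fourth. The falls numbered 26, 16, 21 and 26 in the 4 parts. The median size was 1.87 on the log2 scale for the rises and 0.97 for the falls.

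Pp3c19_8751 had 3.06, 5.25 and 1.65 CPM in cmt/dnmt3b, against 0 counts in the 3 dnmt3b libraries, and was at least 57.6-fold higher (edgeR adjusted p = 4.45e-05). It also had 0.543, 0.333 and 1.57 CPM in cmt, while all libraries of drm12, met and wt had 0 counts and met/dnmt3b held 1 count in all. Pp3c19_9160 had 12.6, 9.31 and 10.9 CPM in cmt/dnmt3b, against 0, 0.101 and 0.120 CPM in dnmt3b (log2 fold change 6.89 ± 1.04 SE, adjusted p = 5.36e-05). Pp3c19_15440 had 1.68, 1.40 and 0.705 CPM in cmt/dnmt3b, against 16.6, 14.1 and 19.6 CPM in dnmt3b (-3.90 ± 0.34, adjusted p = 2.18e-07). It was at 5.71 and 6.64 CPM in wt replicates 1 and 2 and at 17.2 CPM in wt replicate 3. The dnmt3b libraries lay above wt replicates 1 and 2 and those of cmt/dnmt3b below them. Pp3c19_5900 had 1.33, 1.61 and 1.70 CPM in cmt/dnmt3b, against 10.9, 13 and 14.4 CPM in dnmt3b (-3.23 ± 0.38, adjusted p = 3.76e-06), with 4.39 and 4.78 CPM in wt replicates 1 and 2 and 11.4 CPM in wt replicate 3.

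The balance of these calls moved with the scaling. With factors from genes and TEs together 69 genes rose and 118 fell (background 13.7% and 17.3%), and the median over all genes stood at -0.096 in place of 0.020, a shift that chromosome 19 shared (-0.19 in place of -0.07). In the fit that includes wt replicate 3, 79 rose and 68 fell (background 15.8% and 12.7%), 79 and 67 of them called in both fits. Leaving out any library of the 2 genotypes gave 118 to 146 calls. In a fit within batch 2 alone, 108 genes rose and 115 fell of 613 (background 20.8% and 16.4%).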

How the data were processed

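Polyadenylated RNA was sequenced in 20 libraries. The authors deposited 1 table of raw counts, with 31967 gene rows and 241351 TE rows. Trim Galore 0.6.0, cutadapt 1.15 and STAR 2.7.0f are named in the submitters' processing notes, with no role given. How reads were counted (strand setting, reads mapping to several places, genome build, gene models) was not given in the sources used here, and counts of overlapping genes and of close paralogs are uncertain. Replicates differed by more than sampling noise (chi-square per degree of freedom 6.87 to 153 over 19 pairs) and all were kept as separate libraries.

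The main test was edgeR 4.0.16 (R 4.3.3), quasi-likelihood, on all genes and TEs of 19 libraries without wt replicate 3, with genotype and batch as terms, library sizes and trimmed-mean (TMM) factors from gene rows, and edgeR's low-count filter (minimum count 10, minimum total 15). A standard error (SE) is the size of the log2 fold change over the square root of its F statistic. Benjamini-Hochberg adjustment ran over 26829 features. Alternatives were DESeq2 1.42.0, other scalings, no filter, no batch term, single batches, a replicate block and leaving out libraries. Named genes were the 3 with the most counts, the 2 largest called rises and falls per comparison whose groups did not overlap, the 2 highest and lowest ratios of wt replicate 3 to replicates 1 and 2, and 3 of those called in the most comparisons with wt (ties by adjusted p). The pathway lists that were planned needed gene names and were not used. Members and lists were chosen with earlier results of these data known. The fit was also run on simulated counts drawn with no batch effect, so that run says nothing about comparisons that rest on the batch term. Same-numbered libraries of cmt and wt deviated together (correlation 0.44, 0.36 and 0.53 for replicates 1 to 3 with all wt libraries, across genes), where number 3 is also batch 2; in no other comparison did each pair exceed 0.1.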

Additional observations from a re-analysis of the deposited data

How the results depend on the processing

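None of the 33 called gene results given (gene and comparison) changed direction under the alternatives run, while 19 of them lost their call in at least 1, and counts of calls moved with most alternatives. With wt replicate 3 in the fit the counts of chromosome 19 genes called were 44 in cmt, 38 in dnmt3b, 59 in met/dnmt3b and 225 in cmt/dnmt3b against wt, and the median log2 fold changes were -0.31 in drm12, -0.21 in met, -0.35 in cmt, -0.5 in dnmt3b, -0.2 in met/dnmt3b and -0.62 in cmt/dnmt3b. DESeq2 called 29 genes in met (3 higher, 26 lower; 4.82% of chromosome 19 genes and 4.23% of all genes), 39 in cmt (21 and 18; 6.48% and 5.78%) and 48 in dnmt3b (18 and 30; 7.97% and 6.59%). With no low-count filter the counts were 50 in met (17 higher, 33 lower), 44 in cmt (22 and 22), 57 in dnmt3b (18 higher, 39 lower), 74 in met/dnmt3b (36 and 38), 67 in cmt/dnmt3b (26 and 41) and 68 in met/dnmt3b against met (39 and 29), 5.59 to 9.4% of chromosome 19 genes against 5.44 to 9.3% of all genes, and the medians 0.02 in cmt/dnmt3b against wt and 0 against dnmt3b. With no batch term the counts were 2 in met, 31 in cmt, 108 in dnmt3b, 16 in met/dnmt3b, 164 in cmt/dnmt3b and 19 in met/dnmt3b against met, 0.332 to 27.2% of chromosome 19 genes against 0.392 to 30.1% of all genes, and the medians 0.07 in dnmt3b and -0.0094 in cmt/dnmt3b. Within batch 1 the counts were 37 in met and 62 in met/dnmt3b, and within batch 2 the median of cmt/dnmt3b against dnmt3b was -0.04. With scaling over genes and TEs the medians were 0.06 in drm12, 0.06 in dnmt3b, -0.05 in met/dnmt3b and -0.14 in cmt/dnmt3b against wt, -0.02 in met/dnmt3b against met and -0.19 in cmt/dnmt3b against dnmt3b. The median relative level of chromosome 19 in wt replicate 3 was 0.75 with no minimum mean level. The cause of these shifts was not tested.

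With the replicate number as a block the counts against wt were 3 in met, 15 in cmt, 2 in dnmt3b, 19 in met/dnmt3b and 15 in cmt/dnmt3b. In that order these were 0.498, 2.49, 0.332, 3.16 and 2.49% of chromosome 19 genes. The shares over all genes were 0.332, 2.89, 0.129, 4.08 and 3.87%. The count was 21 in met/dnmt3b against met (3.49%, against 3.06% of all genes). It was 151 in cmt/dnmt3b against dnmt3b (73 higher, 78 lower, against 14.8% and 11.3% of all genes). In each of these comparisons the block lowered the share called both on chromosome 19 and over all genes. The median in dnmt3b against wt was -0.03. Of the 33 gene results, 25 kept their call under the block and 8 lost it, with no loss in cmt against wt. The calls lost were those of Pp3c19_3140 for met, Pp3c19_7890 for met/dnmt3b, Pp3c19_2940 and Pp3c19_9000 for cmt/dnmt3b, Pp3c19_2880, Pp3c19_3000 and Pp3c19_14120 for dnmt3b, all against wt, and Pp3c19_16640 for met/dnmt3b against met. Without wt replicate 3, the correlation of same-numbered libraries was 0.24 in cmt against wt. In the other comparisons with wt it was -0.47 in drm12, -0.13 in met, -0.21 in dnmt3b, -0.54 in met/dnmt3b and 0.005 in cmt/dnmt3b. It was 0.04 in met/dnmt3b against met and 0.03, -0.18 and 0.32 for replicates 1 to 3 in cmt/dnmt3b against dnmt3b. The labels do not say whether same-numbered libraries share more than the number.

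Leaving out 1 library at a time gave 0 to 0 calls in drm12, 0 to 11 in met, 7 to 39 in cmt, 1 to 19 in dnmt3b, 8 to 26 in met/dnmt3b and 15 to 25 in cmt/dnmt3b against wt, 3 to 37 in met/dnmt3b against met and 118 to 146 in cmt/dnmt3b against dnmt3b. The medians ran from -0.0073 to 0.08 in drm12, -0.0045 to 0.04 in met, 0.0044 to 0.03 in cmt, -0.0099 to 0.11 in dnmt3b, 0.01 to 0.08 in met/dnmt3b and -0.06 to 0.006 in cmt/dnmt3b against wt, 0.02 to 0.06 in met/dnmt3b against met and -0.07 to -0.03 in cmt/dnmt3b against dnmt3b. A group left with 1 library was assumed to vary like the others. For counts with a library left out, here and above, the shares over all genes are not given. Those counts are not read as a trait of chromosome 19. With 2 or 3 libraries a group, and levels under 0.138 to 0.211 CPM below 3 counts, small differences of low genes were not detectable.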
